A study of Mus musculus with 20 samples.

Results

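The genes described here move iron across membranes, carry it in plasma, store it or regulate its release. They are Tfrc, Trf, Slc11a1, Slc11a2, Fth1, Ftl1, Slc40a1, Cp and Hamp. They were chosen by gene symbol, with earlier results of these data known. All 9 genes were on the array, represented by 15 of its 55681 probes. The RNA came from diaphragms of female C57Bl/6 mice, taken 12 weeks after a single injection into the pleural cavity at 8 weeks of age. The control group received the vehicle alone, 100 μL of saline with 0.5% bovine serum albumin, and every fiber was given in the same vehicle. SFA and LFA are short and long fibers of amosite, an iron-rich form of asbestos, at 25 μg per mouse. NTS and NTL are short and long carbon nanotubes, at 5 μg per mouse. Each of the 5 groups held 4 mice, with 1 array per mouse. SFA was made by grinding the long amosite, so that 3.1% of its fibers were at least 5 μm long, against 100% of LFA fibers. NTS was bought from a company and NTL was made in a university laboratory, so nanotube length and source cannot be told apart. The dose of amosite and of nanotubes differed, so fiber material and dose cannot be told apart. For each probe, the p-values rest on a spread between mice pooled over all 5 groups, not only those compared, unless stated otherwise.

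Cells take up iron bound to plasma transferrin (Trf) through the transferrin receptor (Tfrc), and carry it out of endosomes through Slc11a2. Slc11a1 is a related metal transporter in the phagosomes of macrophages, which recycle the iron of engulfed red cells. Iron that is not used is held in ferritin, a shell of heavy (Fth1) and light (Ftl1) chains. Slc40a1 (ferroportin) exports iron, the copper enzyme ceruloplasmin (Cp) oxidizes it for loading onto transferrin, and the liver hormone hepcidin (Hamp) causes ferroportin to be degraded. The diaphragm lies against the liver, and transferrin, ceruloplasmin and hepcidin are made mainly in liver.

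Sequences are shown for the gene that passed the tests, Slc11a1, and for Hamp, whose signal could be mistaken for that of its close relative Hamp2. The array held separate probes for Hamp (chr7:31727490-31727549) and Hamp2 (chr7:31707520-31707579), both on the minus strand of NCBI37. The probes are printed with the bases that differ in capitals, after a shift of 1 base. They share 42 of the 59 aligned bases.
Hamp probe: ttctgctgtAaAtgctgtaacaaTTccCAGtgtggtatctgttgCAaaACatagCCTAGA
Hamp2 probe: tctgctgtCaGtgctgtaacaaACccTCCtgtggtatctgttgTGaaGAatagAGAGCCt

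RefSeq promoter windows of GRCm38.p6, from 250 bases before to 50 after the start of the gene, were found for 6 of the 9 genes. Both strands were searched for GAGGAA, the core bound by the macrophage factor PU.1, for TTCNNNGAA, bound by STAT proteins, and for TGACNNNGC, the core of the antioxidant response element. These motifs were chosen after the sequences had been seen. The Slc11a1 window (chr1:74374953-74375252, plus strand) holds GAGGAA, in capitals, 152 bases before the start, and 28.3% of the 32851 windows in the table hold it. The Hamp window (chr7:30943980-30944279, minus strand) holds TTCNNNGAA, in capitals, 97 bases before the start, as do 8.3% of all windows. TGACNNNGC was found in 12.4% of all windows and in 0 of the 9 windows of these genes. No other window of these genes held any of the 3 motifs.
Slc11a1 promoter: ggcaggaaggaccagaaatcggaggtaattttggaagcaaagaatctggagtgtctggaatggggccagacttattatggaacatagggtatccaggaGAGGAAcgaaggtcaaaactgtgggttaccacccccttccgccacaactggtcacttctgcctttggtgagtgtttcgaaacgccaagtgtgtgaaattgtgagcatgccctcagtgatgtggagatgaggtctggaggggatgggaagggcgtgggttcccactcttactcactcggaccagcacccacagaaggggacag
Hamp promoter: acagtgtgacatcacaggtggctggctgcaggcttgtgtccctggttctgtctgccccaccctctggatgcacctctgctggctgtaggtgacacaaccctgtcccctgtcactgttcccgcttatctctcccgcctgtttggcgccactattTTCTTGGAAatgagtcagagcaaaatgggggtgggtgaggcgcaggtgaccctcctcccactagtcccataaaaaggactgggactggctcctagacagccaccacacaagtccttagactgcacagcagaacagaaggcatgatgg

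Signals are given as log2 intensity relative to the 75th percentile of the array, so 0 is that percentile, and a difference of 1 is a 2-fold difference. The 75th percentile itself ran from 294 to 996 intensity units over the 20 arrays, and 53.0% to 68.1% of spots were well above background. All 15 probes entered the tests, and 12 exceeded background on each of the 20 arrays. The brightest probe stands for a gene. Levels are compared between groups for 1 probe at a time and not between genes. Muscle genes marked the tissue as labelled, and the mean signal of 10 skeletal muscle genes ran from 6.79 to 8.73 over all arrays. Liver genes were also present, at very unequal levels. The signal of albumin (Alb), the main protein made by liver, ran from -1.94 to 10.14. It spread widely inside each group, with the highest array at 6.68 in control, 8.66 in SFA, 9.47 in LFA, 10.14 in NTS and 7.15 in NTL, and the lowest below 0 in every group except NTL, where it was 2.11.

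Slc11a1 was the only one of the 9 genes that passed the test against control, and it was higher with both long fibers. In control mice its signals were 0.13, -0.23, 0.58 and 0.26. In LFA mice they were 2.14, 2.27, 0.91 and 2.63, and in NTL mice 2.25, 1.54, 3.05 and 2.08. Every long-fiber array lay above every control array, which was so in this direction for 4.60% of all probes in LFA and 6.34% in NTL. The SFA signals were 0.53, -0.13, 0.52 and 0.81 and the NTS signals 0.41, 0.27, 0.38 and 0.31, so both short-fiber groups overlapped control. The probe lies at chr1:74432161-74432220 of NCBI37, plus strand.

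With limma, the increase of Slc11a1 was 1.80 ± 0.35 (SE) in LFA, a 3.49-fold rise with a 95% interval of 2.09 to 5.84 (adjusted p = 0.00937). In NTL it was 2.04 ± 0.35, a 4.13-fold rise with an interval of 2.47 to 6.90 (adjusted p = 0.00187). A call needed at least a 2-fold change and an adjusted p under 0.05, and 1 of 9 genes met it in each comparison. Of all 36920 probes tested, 3.94% met it in LFA and 6.81% in NTL, of which 2.22% and 3.63% were increases. At an unadjusted p under 0.05, 2 of 9 genes stood out in LFA and 1 of 9 in NTL, against 23.9% and 23.5% of all probes. In a bulk tissue, more cells that express a gene and more of its RNA per cell cannot be told apart.

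The order of the group means was NTL (2.23), LFA (1.99), SFA (0.43), NTS (0.34) and control (0.19), with SDs of 0.63, 0.75, 0.40, 0.07 and 0.34 (n = 4 each). The step between the long and the short groups was the one that passed the test. LFA exceeded SFA by 1.56 (adjusted p = 0.0354), where 1.16% of all probes were called. NTL exceeded NTS by 1.89 (adjusted p = 0.00261), where 7.60% were called. The first of these was lost in 13 of 31 other settings, among them 8 that left out a single array, with adjusted p up to 0.251. The neighbors in the rest of the order did not differ beyond their spread. NTS and control differed by 0.16 (95% interval -0.58 to 0.90), SFA and NTS by 0.09 (-0.65 to 0.83) and LFA and NTL by -0.24 (-0.98 to 0.50).

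**Figure D1:**
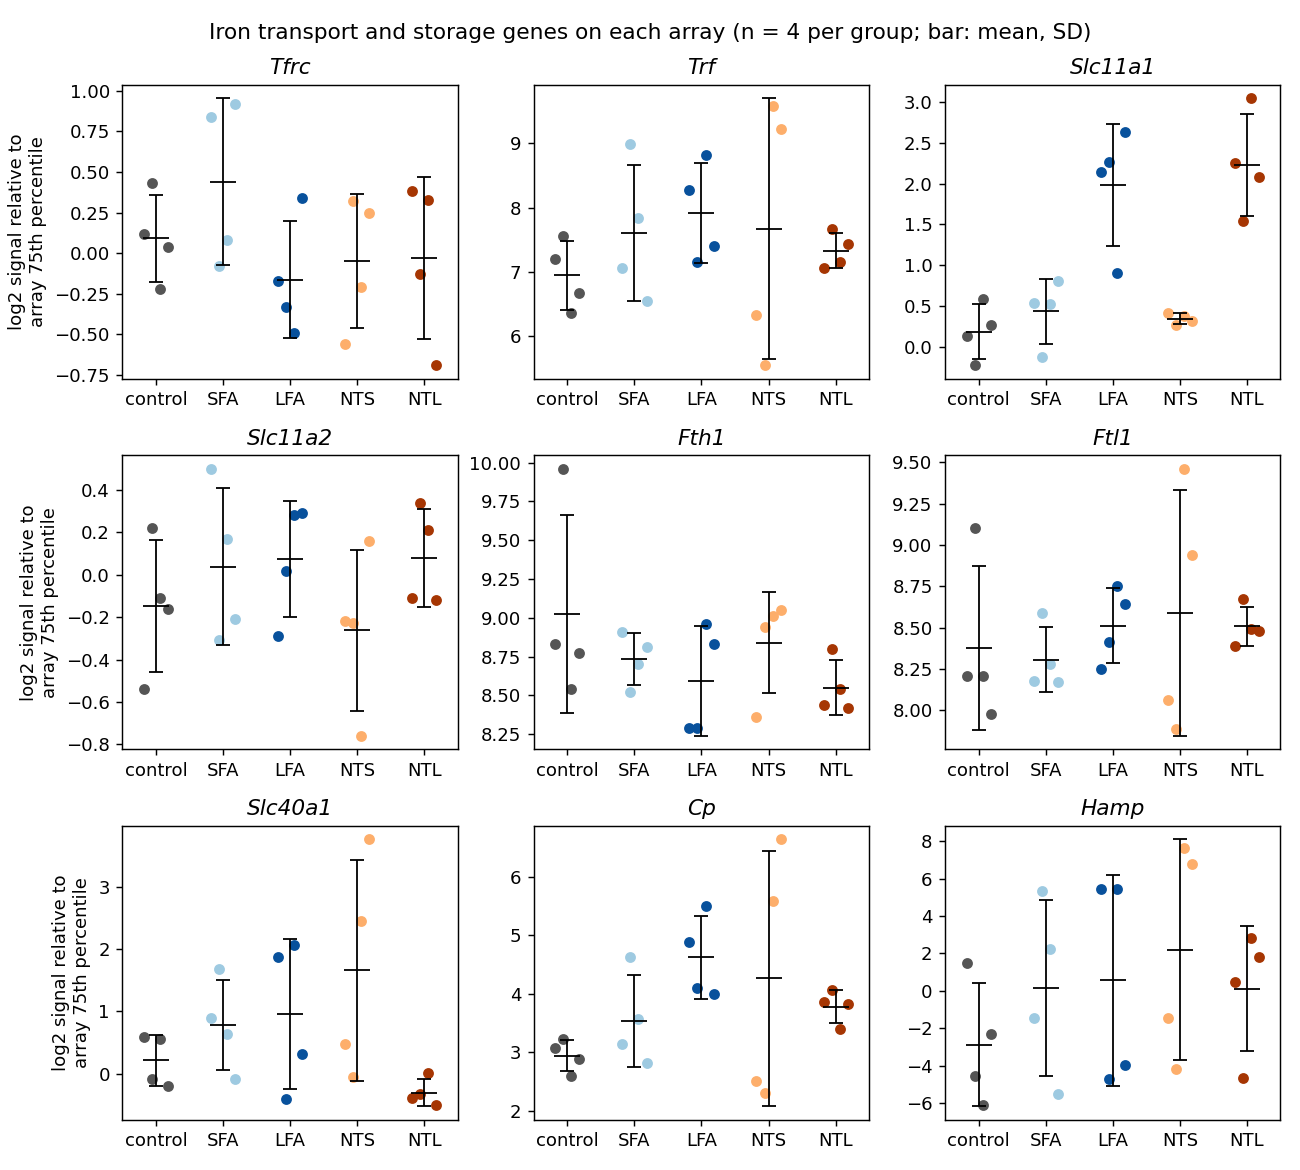
Log2 signal relative to the 75th percentile of the array (y axis) for the brightest probe of each of the 9 genes, by group (x axis), with 1 point per array and the mean and SD of 4 arrays as bars. Slc11a1 is higher on all 4 LFA and all 4 NTL arrays than on any control array, while Hamp, Trf, Cp and Slc40a1 are spread widely inside the NTS group.

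The arrays lay on 3 slides, which each held several groups. Within each of the 3 slides, LFA exceeded control by 1.51, 2.19 and 1.70. On the 2 slides that held both groups, NTL exceeded control by 2.30 and 1.64. With a liver score as a covariate, the mean log2 signal of 14 liver genes, the changes were 1.90 in LFA (adjusted p = 0.00615) and 2.14 in NTL (adjusted p = 0.00119). The call was lost in LFA when only control and LFA arrays were fitted (adjusted p = 0.0562). It was lost in NTL on the arrays with an Alb signal under 5, where 1 NTL array was left, at 1.33 (adjusted p = 0.278). With slide as a block, the long against short differences were 1.66 for LFA (adjusted p = 0.0588) and 1.62 for NTL (adjusted p = 0.0633), past the threshold in neither.

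Most macrophage markers moved with Slc11a1. Of 10 markers, 8 were called higher in LFA and 8 in NTL, where 2.22% and 3.63% of all probes were. Among them were Cd68, by 1.95 and 2.39, and Cd14, by 2.30 and 2.36. The change was negative for 1 of the 10 in LFA and for 1 in NTL. The mean log2 signal of the 10 markers ran from 1.88 to 2.41 in control, 2.15 to 2.65 in SFA, 1.88 to 2.27 in NTS, 3.34 to 4.31 in LFA and 4.07 to 4.33 in NTL. The part of macrophage number in the change of Slc11a1 was not tested. After the group means were removed, Slc11a1 and the marker mean had a Pearson r of 0.45 over the 20 arrays, which share tissue and scaling. Markers of dividing cells were also higher, with 5 of 7 called in LFA and 5 of 7 in NTL.

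**Figure D2:**
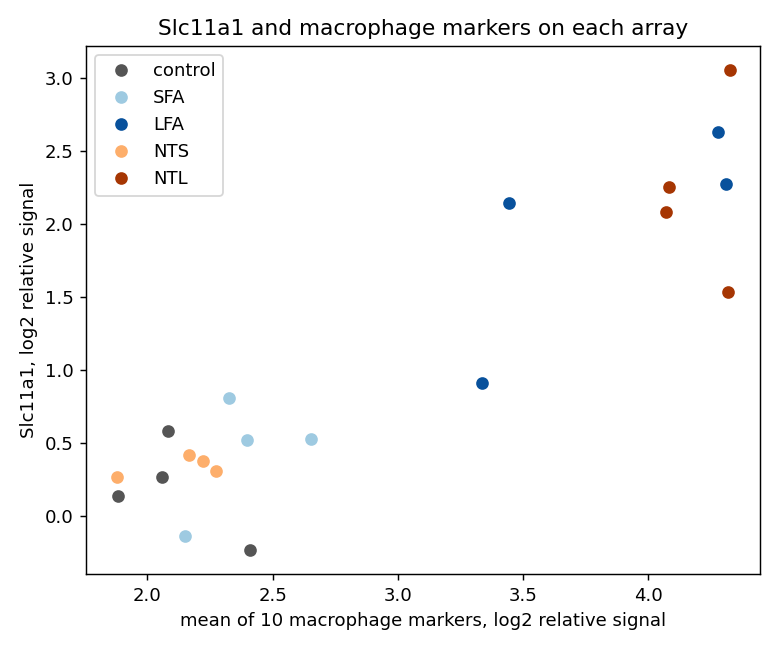
Log2 signal of Slc11a1 (y axis) against the mean log2 signal of 10 macrophage markers (x axis), with 1 point per array. All LFA and NTL arrays lie to the right of the other 12 arrays, with marker means from 3.34 to 4.33.

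The genes whose signals were most like Slc11a1 inside the groups were Gp49a, Itgb2 and Prkcd. Their Pearson r, over 20 arrays after the group means were removed, was 0.93, 0.88 and 0.88, the highest of 13092 genes. Gp49a names a receptor of myeloid cells, Itgb2 encodes the integrin chain shared by leukocytes, and Prkcd encodes a protein kinase C. The group means of Itgb2 were 0.48 in control, 0.73 in SFA, 0.14 in NTS, 2.40 in LFA and 2.88 in NTL.

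The transporter Slc11a2, which is found in most cells, did not pass the test in any comparison. On its brightest probe the 20 signals ran from -0.76 to 0.50, and all groups overlapped. The change was 0.22 in LFA (95% interval -0.31 to 0.76) and 0.23 in NTL (-0.31 to 0.76). A second probe, nearer the 5′ end of the transcript, gave -0.96 in LFA (-1.94 to 0.02) and -0.45 in NTL (-1.43 to 0.53). The 2 probes thus differed in sign, and neither passed the test.

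The transferrin receptor Tfrc did not pass the test either. Its brightest probe had signals of 0.12, 0.43, -0.22 and 0.04 in control, -0.17, -0.33, -0.49 and 0.34 in LFA, and 0.38, -0.13, 0.33 and -0.69 in NTL. The signals in SFA were 0.84, -0.08, 0.08 and 0.92, the highest group mean (0.44 ± 0.51 SD, n = 4). The groups overlapped, and the changes against control ran from -0.25 in LFA to 0.35 in SFA. The other 2 probes gave -0.38 and -0.51 in LFA and -0.33 and -0.17 in NTL. The last of the probes was well above background on 15 of 20 arrays.

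Neither ferritin chain passed the test in any comparison. The signals of Fth1, the heavy chain, which oxidizes iron on entry, were 8.83, 9.96, 8.54 and 8.77 in control, 8.29, 8.29, 8.96 and 8.83 in LFA, and 8.44, 8.80, 8.54 and 8.42 in NTL. The mean of control was raised by 1 array at 9.96, control array 2. Of the 20 arrays, it had the lowest 75th percentile (294) and the lowest share of spots well above background (53.0%). It also gave the highest control signal of Ftl1 (9.10), Trf (7.56), Cp (3.22), Tfrc (0.43) and Slc11a2 (0.22), but the lowest of Slc11a1 (-0.23). The change of Fth1 was -0.44 in LFA (95% interval -1.03 to 0.16) and -0.48 in NTL (-1.07 to 0.12). Under quantile normalization these were 0.15 and 0.13, so the sign turned with the scaling. The median change of all tested probes was -0.28 in LFA and -0.25 in NTL under the scaling used here.

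The signals of Ftl1, the light chain, were 8.21, 9.10, 8.21 and 7.98 in control, 8.25, 8.41, 8.75 and 8.64 in LFA, and 8.39, 8.67, 8.49 and 8.48 in NTL. All of these groups overlapped. The change was 0.14 in LFA (95% interval -0.51 to 0.79) and 0.13 in NTL (-0.52 to 0.79). Under quantile normalization it was 0.71 (adjusted p = 0.0979) and 0.75 (adjusted p = 0.0646), still short of the threshold. The probe also matches a predicted near-copy of the gene, which makes its origin uncertain. A second probe, without that match, gave 0.77 in LFA (-0.17 to 1.72) and 0.48 in NTL (-0.46 to 1.42).

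Hepcidin varied with albumin inside the groups and passed the test in no comparison. The Hamp signals were 1.47, -4.56, -6.12 and -2.33 in control, -1.43, 5.33, 2.25 and -5.54 in SFA, and 5.46, -4.72, 5.44 and -3.96 in LFA. They were -1.46, -4.16, 7.67 and 6.77 in NTS and 0.48, -4.68, 2.83 and 1.82 in NTL. Each group held both high and low arrays, and the signal was not well above background on 2 control arrays and 1 SFA array.

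After the group means were removed, Hamp and Alb had a Pearson r of 0.98 over the 20 arrays. The change of Hamp was 3.44 in LFA (95% interval -2.95 to 9.83), 2.99 in NTL (-3.40 to 9.39), 3.04 in SFA (-3.35 to 9.43) and 5.09 in NTS (-1.30 to 11.48). With the liver score as a covariate these became 0.77, 0.39, 0.53 and 1.20. None passed the test with or without it. Hamp2 had an r of 0.94 with Alb. The part of liver RNA in these differences was not tested.

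Transferrin, the plasma carrier, also moved with Alb. The signals of Trf were 7.20, 7.56, 6.35 and 6.67 in control, 8.28, 7.15, 8.82 and 7.40 in LFA, and 6.32, 5.54, 9.58 and 9.23 in NTS. The highest SFA (8.99), LFA and NTS arrays were those with the highest Alb of their groups. The highest control (7.56) and NTL (7.67) arrays were those with the lowest Alb of their groups. Inside groups, r with Alb was 0.80 for this probe and 0.88 for the second probe. The change of Trf was 0.97 in LFA (95% interval -0.58 to 2.52), and 0.43 with the liver score as a covariate. In NTL it was 0.38 (-1.17 to 1.93), and -0.14 with that covariate.

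**Figure D3:**
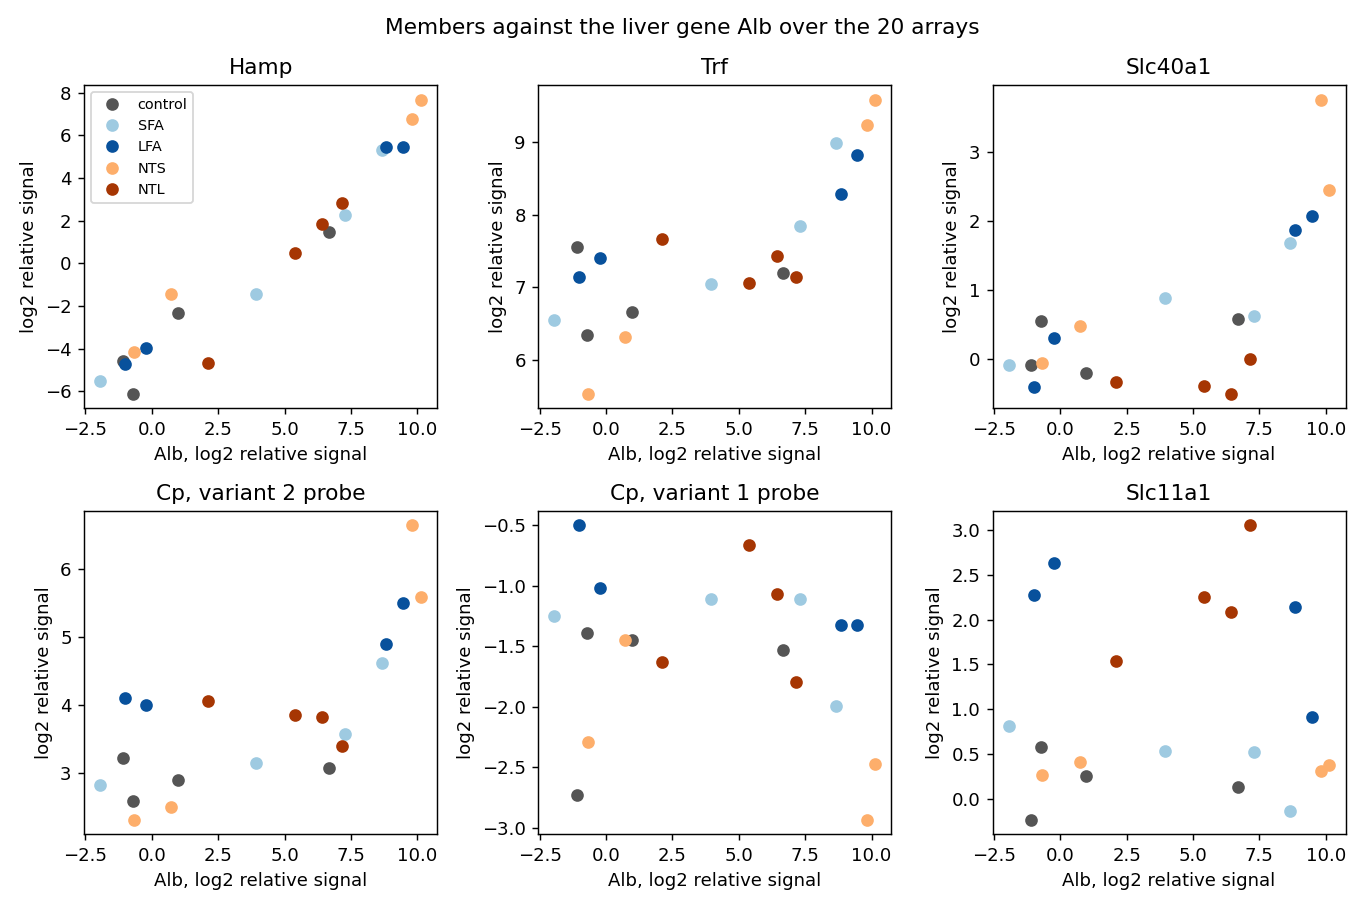
Log2 signals of Hamp, Trf, Slc40a1, both Cp probes and Slc11a1 (y axes) against that of the liver gene Alb (x axes) on each of the 20 arrays, colored by group. Hamp rises with Alb over the whole range (r = 0.98 inside groups). For Slc11a1 r is -0.30, and all LFA and NTL arrays lie above control. The lowest of them (0.91) is LFA array 3, which has the highest Alb of the long-fiber arrays (9.47).

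Ceruloplasmin gave different patterns on its 2 probes. The brighter probe, for transcript variant 2 (chr3:19889071-19889130), had signals of 3.07, 3.22, 2.59 and 2.89 in control, 4.89, 4.10, 5.50 and 3.99 in LFA, and 3.85, 4.06, 3.39 and 3.82 in NTL. All LFA and all NTL arrays lay above control, as was so for 4.60% of all probes in LFA and 6.34% in NTL. The SFA signals were 3.14, 4.62, 3.57 and 2.82, with 2 arrays above the highest control array and 0 below the lowest. The NTS signals were 2.50, 2.31, 5.59 and 6.64, with 2 arrays above control and 2 below it.

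The change on this probe was 1.68 ± 0.73 (SE) in LFA (adjusted p = 0.171) and 0.84 ± 0.73 in NTL (adjusted p = 0.529), so neither passed the test. The SE is pooled over all 5 groups, and NTS had the widest spread. The SDs were 0.27 in control, 0.71 in LFA, 0.28 in NTL, 0.78 in SFA and 2.19 in NTS. The r of this probe with Alb inside groups was 0.75. Its change in LFA was 1.18 with the liver score as a covariate (adjusted p = 0.168). On the 2 LFA and 3 control arrays with an Alb signal under 5, it was 1.15 (adjusted p = 0.203). LFA was called when the 2 NTS arrays with the most Alb were left out (adjusted p = 0.0132), and when both probes were averaged (1.21, adjusted p = 0.0338).

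The other Cp probe, for transcript variant 1 (chr3:19907511-19907570), had an r of -0.35 with Alb. Its change was 0.74 in LFA (95% interval -0.05 to 1.52) and 0.49 in NTL (-0.29 to 1.27). It was -0.51 in NTS (-1.29 to 0.27), where the variant 2 probe gave 1.32. None of these passed the test.

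The exporter Slc40a1 had signals of 0.59, -0.09, 0.55 and -0.20 in control, 1.87, -0.40, 2.07 and 0.31 in LFA, and -0.39, -0.33, 0.01 and -0.50 in NTL. The NTS signals were 0.48, -0.06, 2.45 and 3.76 and the SFA signals 0.89, 1.68, 0.63 and -0.08. The NTL arrays were uniformly low, while the 2 highest LFA and the 2 highest NTS arrays were those with the highest Alb of their groups. Inside groups, r with Alb was 0.85.

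Against control, Slc40a1 differed by 0.75 in LFA (95% interval -0.68 to 2.18) and -0.51 in NTL (-1.95 to 0.92), and neither passed the test. In SFA it differed by 0.57 (-0.86 to 2.01). The largest change was in NTS, at 1.45 (0.01 to 2.88, unadjusted p = 0.0481), which did not pass after adjustment. The difference of NTL from NTS was -1.96 ± 0.68 (SE), with an adjusted p of 0.0809. With the liver score as a covariate, this change was -1.71 and passed (adjusted p = 0.00686). On the arrays with an Alb signal under 5, of which NTL had 1 and NTS 2, it was -0.54, with the lone NTL array assumed to vary like the other groups (adjusted p = 0.592). With slide as a block it was -1.19 (adjusted p = 0.414), and NTL and NTS shared 1 slide, which held 1 NTL and 2 NTS arrays. The part of liver RNA in it was not tested beyond these settings.

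No gene of the set passed the test between amosite and nanotubes. The mean of LFA and SFA was set against the mean of NTL and NTS, 8 arrays on each side, and 0 of 9 genes passed the test, as did 0 of all 36920 probes (0%). At an unadjusted p under 0.05, 0 of the 9 genes and 3.41% of all probes stood out. The median difference of the 9 genes was 0.06, and that of all tested probes -0.03. The 95% intervals say how large a difference could have been missed.

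For the transporters the intervals were narrow, and the differences were -0.08 for Slc11a1 (-0.60 to 0.45), 0.15 for Slc11a2 (-0.23 to 0.53) and 0.18 for Tfrc (-0.28 to 0.64). The ferritin chains differed by -0.03 for Fth1 (-0.45 to 0.39) and -0.14 for Ftl1 (-0.60 to 0.33). For these probes, and for means pooled over both lengths, the intervals stayed within a 2-fold difference, an absolute value of 1. Those of the second probe of Slc11a2, -0.47 (-1.16 to 0.22), and of Tfrc between the short fibers alone, 0.49 (-0.16 to 1.14), reached beyond it. For the genes that moved with Alb they were wider, at 0.26 for Trf (-0.83 to 1.36), 0.06 for Cp (-1.02 to 1.14), 0.19 for Slc40a1 (-0.82 to 1.21) and -0.80 for Hamp (-5.32 to 3.72).

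The variant 1 probe of Cp had the lowest unadjusted p of the 15 probes for this comparison (0.0399). It was higher with amosite by 0.58 (95% interval 0.03 to 1.14), which did not pass after adjustment over all probes (adjusted p = 0.957). Between the long fibers alone, LFA against NTL, 0 of 9 genes and 0 of 36920 probes (0%) passed, with 1.55% of probes at an unadjusted p under 0.05. Between the short fibers, SFA against NTS, the same counts were 0, 0 (0%) and 5.83%. SFA and NTS against control also gave 0 genes and 0 probes (0%). With SFA, 0 of 9 genes and 2.28% of probes had an unadjusted p under 0.05. With NTS, 1 of 9 genes (Slc40a1) and 3.49% of probes did. The difference of long from short fibers varied with material for 0 genes and 0 probes (0%). At an unadjusted p under 0.05, 1 gene and 3.45% of probes stood out. The gene was Slc40a1, with a shift of 2.14 (95% interval 0.11 to 4.17, unadjusted p = 0.0398), which did not pass after adjustment. Its difference was 1.26 between LFA and NTL (-0.17 to 2.70) and -0.87 between SFA and NTS (-2.31 to 0.56). These have opposite signs, so they partly cancel in the pooled mean, and neither passed the test.

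**Figure D4:**
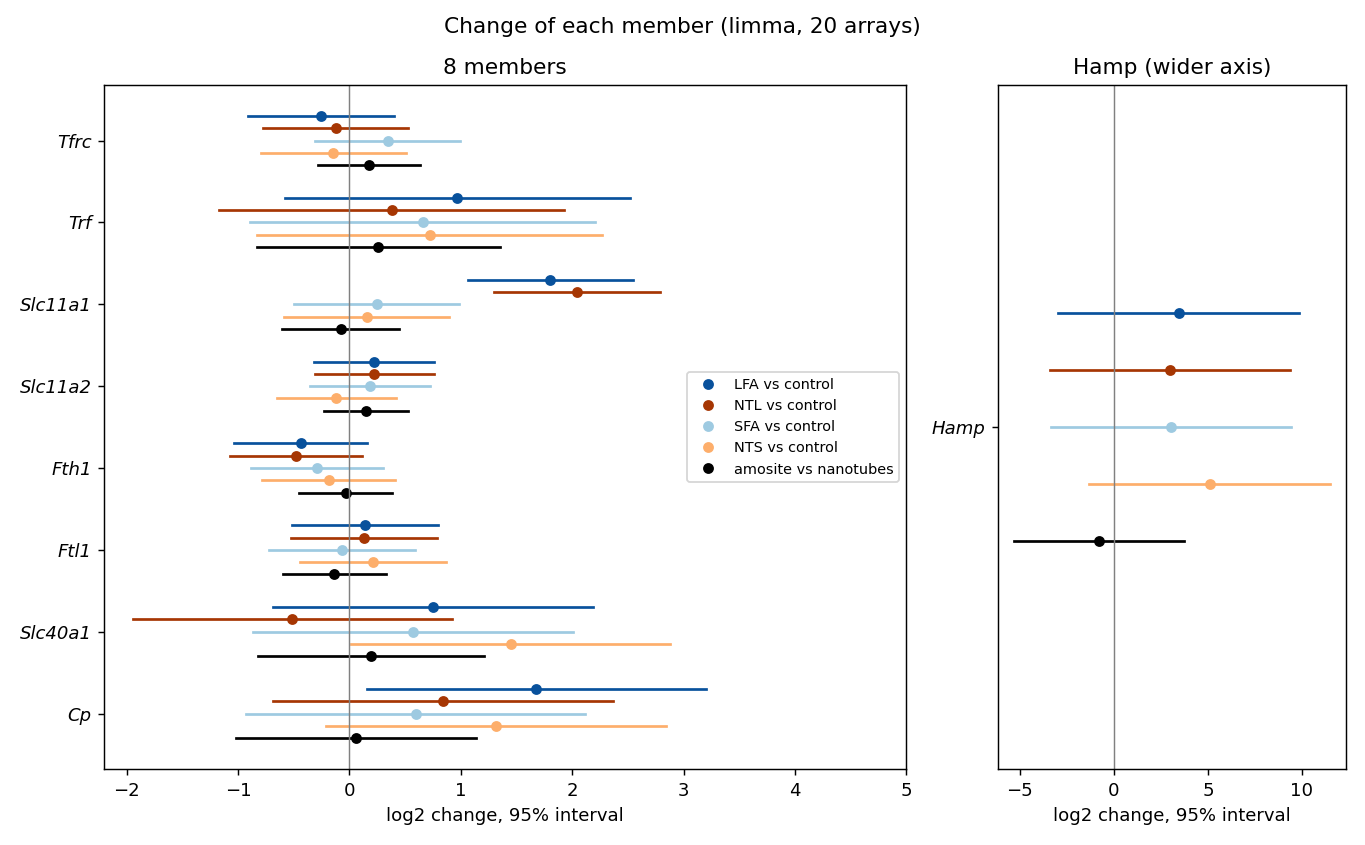
Log2 change with its 95% interval from limma (x axis) for the brightest probe of each gene (y axis) in each fiber group against control, and for amosite (LFA and SFA) against nanotubes (NTL and NTS), with Hamp on a wider axis. Among the changes against control, the 2 intervals of Slc11a1 in LFA and NTL lie above 1, and all 9 black intervals for amosite against nanotubes cross 0.

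The wider pathway was read from 54 genes in 7 roles, of which 50 were on the array and 48 were tested. In LFA 1 rose and 0 fell, where 2.22% of all probes rose and 1.72% fell. In NTL 1 rose and 2 fell, where 3.63% of all probes rose and 3.18% fell. The median change of the 48 genes was 0.15 in LFA and -0.06 in NTL, against -0.28 and -0.25 over all tested probes. For LFA against NTL, SFA against NTS and amosite against nanotubes, 0 of 48 passed.

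Steap1, a member of the family of metal reductases, was the gene that rose in both. Its group means were -2.61 in control, -2.50 in SFA, -2.70 in NTS, -0.58 in LFA and -0.79 in NTL. The change was 2.03 ± 0.44 (SE) in LFA (adjusted p = 0.0172) and 1.82 ± 0.44 in NTL (adjusted p = 0.0177). Both long-fiber groups also exceeded their short counterparts, by 1.92 and 1.91. Against control, it was the single call among 11 tested genes of uptake and reduction.

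Of 9 mitochondrial iron genes tested, 2 were called lower in NTL and 0 in LFA, where 3.18% and 1.72% of all probes were. The median change of the 9 genes was -0.72 in NTL and -0.52 in LFA, beside the medians of -0.25 and -0.28 over all tested probes. One of the called genes was Alas2, the first enzyme of heme synthesis in red cell precursors, at -1.43 ± 0.43 (SE, adjusted p = 0.0481). With slide as a block, 0 of the pathway genes were called lower in NTL. Alas2 is also a red cell marker. Of 9 red cell genes, 2 were called lower in NTL (Alas2 and Slc4a1) and 0 in LFA and NTS. Of all probes, 3.18% were called lower in NTL, 1.72% in LFA and 0% in NTS. All 9 red cell genes had a negative change in NTL, LFA and NTS, with medians of -1.75, -0.84 and -0.36. The mean signal of the red cell genes ran from 1.22 to 2.71 in control and from -0.28 to 0.49 in NTL. Muscle fibers, rich in mitochondria, were represented by 10 genes. Of these, 4 were called lower in NTL and 2 in LFA, against 3.18% and 1.72% of all probes. The mean of the muscle genes ran from 8.13 to 8.51 in control, 6.95 to 7.71 in LFA and 6.79 to 7.01 in NTL. The part of either cell type in these changes was not tested.

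Heme handling held Hmox1, the enzyme that frees iron from heme, whose change in NTL was 0.92 ± 0.26 (adjusted p = 0.0371), short of 2-fold. Its change in LFA was 0.91 ± 0.26 (adjusted p = 0.0547). It passed both criteria against the short fibers, with 1.18 in LFA over SFA (adjusted p = 0.0308) and 1.03 in NTL over NTS (adjusted p = 0.0195). Also called for NTL over NTS were Abcb6, at -1.32, and Mfi2, which was well above background on 4 NTS and 0 NTL arrays, so that no fold is given. Of the 48 pathway genes, 2 were called higher and 3 lower for NTL over NTS, where 4.89% and 2.71% of all probes were. For LFA over SFA, 2 were called higher and 0 lower, where 1.03% and 0.133% of all probes were. Hmox1, Abcb6 and Mfi2 were picked out after their values were seen. The remaining roles, export and oxidation, hepcidin control, ferritin control and secreted iron binding, held 0 called genes in LFA and NTL.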

How the data were processed

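The authors hybridized RNA in 1 color to Agilent mouse arrays and read the spots with Agilent Feature Extraction 10.7.3.1, per the file headers. The deposited processed signal is an intensity with background subtracted. The authors also deposited a table of normalized log2 values from GeneSpring with 1 value per group and no replicates, which was used for a comparison of values only.

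Outlier spots (92 to 204 per array) and control spots were left out, spots of a probe were averaged, and the 75th percentile of an array was subtracted from its log2 intensities. No spot was saturated. Probes well above background on at least 4 of 20 arrays were tested (36920). A linear model with 1 mean per group was fitted to all arrays with limma 3.58.1 in R 4.3.3, with Benjamini-Hochberg adjustment over all probes. Tables and figures used Python 3.11.15. The model was tested on simulated data. Correlations with Alb are descriptions without a p-value.

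The 9 genes, the pathway and marker lists and the comparisons were chosen with earlier results of these data known. Named pathway genes are those called in a fiber group against control or between materials, of which 1 is counted but not reported by name here. Hmox1, Abcb6 and Mfi2, called between long and short fibers, were added after their values were seen. The alternatives were quantile normalization, normexp, other filters, slide or replicate number as a block, fits of the compared groups alone, averaging by gene, leaving out each array, a liver score, the methods' test, and, chosen after seeing the data, the 10 arrays with Alb under 5 and block and liver fits of the pathway genes. The number of arrays limits the precision. Probe coordinates were copied from the scanner files (NCBI37). No genome was used.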

Additional observations from a re-analysis of the deposited data

Results flagged for a closer look

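In 4 of 74 groups of 4 arrays, counted over the member probes, 1 array stood far from the other 3 by Dixon's criterion, and chance flags about 1 in 20. Fth1 was at 8.36 on NTS array 1, with the other NTS arrays from 8.94 to 9.05. The variant 1 probe of Cp was at -2.73 on control array 2, against -1.53 to -1.39 on the others, and at -1.99 on SFA array 2, against -1.25 to -1.11. The weakest Tfrc probe was at -5.82 on LFA array 3, against -4.79 to -4.65.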

How the results depend on the processing

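Slc11a1 was called in LFA and in NTL against control in 30 of 31 alternatives each. It was lost in LFA when only the groups compared were fitted (0 genes called, adjusted p = 0.0562) and in NTL on the arrays with Alb under 5 (0 called, adjusted p = 0.278), where 1 NTL array was left and was assumed to vary like the others. The LFA count was 2 when probes of a gene were averaged and when both NTS arrays 3 and 4 were left out, through Cp. For LFA over SFA the count was 0 without a filter, with slide as a block, with a replicate block, with only the groups compared and on the arrays with Alb under 5, and ran from 0 to 1 when single arrays were left out (SFA 1, 2, 3 or 4, LFA 1, 2 or 4, or NTL 1). For NTL over NTS it was 0 with slide as a block and on the arrays with Alb under 5, and 2, with Slc40a1, under normexp and with the liver score. It ran from 1 to 2 over single arrays left out, with 2 without NTS array 2. For comparisons between materials it stayed 0 in all settings. In the pathway list, 2 genes rose in LFA when probes were averaged, 2 rose and 1 fell in NTL under quantile normalization, 4 fell in NTL when probes were averaged, 0 fell with slide as a block and 1 with a replicate block. The labels do not pair mice through replicate numbers. The correlation of the deviations of samples with the same number ran from -0.68 to 0.69, and the replicate block changed no other call. Of 2816 recomputed changes, 0 of those called reversed and 181 that were not called turned sign. The methods' test called 1 of 4 members that changed 2-fold, Slc11a1 (adjusted p = 0.0339). Changes in the authors' table differed from those given by at most 0.05. The causes of these differences were not tested. Depth on arrays is signal over background, which limits Hamp and the weakest Tfrc probe.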
